A study of Mus musculus with 23 samples.

Results

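A set of 10 genes that neurons switch on rapidly was followed through 23 mouse hippocampus libraries: Npas4, Ier2, Ier5, Btg2, Csrnp1, Maff, Apold1, Trib1, Gadd45b and Gadd45g. They are the listed rapid activity genes that lie outside the Egr, AP-1 and Nr4a families, and make up 10 of the 24985 gene symbols in each deposited counts table. The mice, on a C57BL6/J background, had exons 3 to 7 of Acss2, which encodes an enzyme that makes acetyl-CoA from acetate, deleted in single-cell embryos. Every cell of a KO mouse therefore carried the constitutive loss, Het mice kept a single intact copy and WT mice had both. Sections of dorsal hippocampus 1 mm thick came from KO fear mice (n = 4), taken 30 min after a contextual fear conditioning session with a single shock, KO home cage mice (n = 5), WT fear mice (n = 3, also at 30 min) and WT home cage mice (n = 5). Whole hippocampus was dissected from untrained KO, Het and WT mice (n = 2 each). Here n counts libraries, as no label says that replicates are separate animals. The labels give no age, and the home cage is the only control for fear conditioning, so the effects of handling, context and shock are not separable here and cannot be told apart.

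Rapid response genes are transcribed from promoters that are already poised, without new protein synthesis, when calcium entry and kinase signalling reach transcription factors such as CREB and SRF. NPAS4 is a basic helix-loop-helix PAS transcription factor that is induced mainly by calcium entry in neurons, pairs with ARNT proteins, and in mouse hippocampus shapes inhibitory synapses and the formation of contextual memory. The other members act at different steps, from transcription factors (Csrnp1, Maff) and nuclear regulators (Ier2, Ier5) to messenger RNA decay (Btg2), protein turnover (Trib1), stress kinase and DNA demethylation pathways (Gadd45b, Gadd45g) and the vessel wall (Apold1).

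Upstream sequences of some members, picked by their measured WT fear differences, are shown for the cAMP response element (CRE), the site that CREB binds, and for a TATA box. RefSeq windows on GRCm38.p6 held the 250 bases before a start site for 8 of the 10 members, with 13 windows in all, and none for Ier2 and Trib1. Capitals mark TGACGTCA, its core TGACG or CGTCA on the other strand, and TATAA within 50 bases of the start. The full CRE appeared in 2 of 13 windows, those of Btg2 and of a Maff start, against 1.55% of 32851 RefSeq windows. The core, which the full CRE contains, appeared in 9 of 13 windows, against 17.8% of windows. Those 9 windows came from 5 of 8 genes, of which Csrnp1 and Maff had more than 1 each. No share by gene was computed over RefSeq. TATAA close to the start was found in 5 of 13 windows, 1 each for Npas4, Ier5, Apold1, Gadd45b and Gadd45g, against 6.36% of windows. The CArG box, the site of SRF, had 0 matches in the 13 windows, against 1.47% of windows. Both strands were searched for each motif, and every TATAA match of the members lay on the strand of the gene. The sequences run 5′ to 3′ on the strand of each gene.
Npas4, chr19:4990128-4990157, minus strand: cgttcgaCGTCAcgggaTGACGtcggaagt
Npas4, chr19:4989980-4990009, minus strand: tgtcaggagctaTATAAggcggatcgaggc
Btg2, chr1:134079156-134079405, minus strand: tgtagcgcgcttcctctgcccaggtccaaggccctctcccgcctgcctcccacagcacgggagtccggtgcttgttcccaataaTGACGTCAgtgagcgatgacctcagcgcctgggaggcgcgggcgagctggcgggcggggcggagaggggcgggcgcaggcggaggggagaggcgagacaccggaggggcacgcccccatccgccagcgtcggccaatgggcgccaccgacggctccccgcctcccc
Maff, chr15:79347400-79347519, plus strand: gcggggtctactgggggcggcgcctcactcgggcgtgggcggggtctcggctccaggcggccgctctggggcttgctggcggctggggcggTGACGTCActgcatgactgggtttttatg
Ier5, chr1:155099637-155099756, minus strand: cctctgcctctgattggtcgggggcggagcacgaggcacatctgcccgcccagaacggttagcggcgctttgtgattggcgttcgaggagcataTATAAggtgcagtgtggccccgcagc
Gadd45g, chr13:51846555-51846674, plus strand: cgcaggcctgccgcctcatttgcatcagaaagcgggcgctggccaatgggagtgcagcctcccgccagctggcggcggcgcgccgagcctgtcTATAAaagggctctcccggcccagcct
Npas4 and Btg2 are the members with a core or full CRE whose WT fear libraries all lay above the WT home cage libraries, though neither was called. Maff, shown beside them, had the full CRE and groups that overlapped, on 1 to 10 reads per WT fear library. Csrnp1 and Apold1, not shown, also had the core and overlapping ranges. Whether members differed from each other in response was not tested. Ier5 and Gadd45g share the TATAA of Npas4 at a like distance from the start and had fear differences of unequal size. All 250 bases of the Npas4 window lie in exons of the GENCODE M21 annotation, so they are upstream of the RefSeq start only. These matches describe the letters only.

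Library totals ran from 5362773 to 23412644 counts in the dorsal experiment and from 18814460 to 27293661 in whole hippocampus. The dorsal libraries were labelled with batch B1 (KO fear 1 and 2, WT fear 1 to 3, WT home cage 1 and 2), B2 (KO home cage 1 to 3, WT home cage 3 to 5) or B3 (KO fear 3 and 4, KO home cage 4 and 5), and B1 libraries held at most 9109104 counts. All whole hippocampus libraries were of batch B0. Acss2 followed the labelled genotype in each library, at 3.87 to 7.02 CPM (read counts scaled to library size) in KO, 31.2 to 34.3 CPM in Het and 56.2 to 71.3 CPM in WT. KO whole hippocampus expressed Y-linked Ddx3y (89.6 and 101 CPM) and almost no Xist (at most 0.145 CPM), whereas Het and WT whole hippocampus held 598 to 677 CPM of Xist and at most 0.186 CPM of Ddx3y, so genotype and sex cannot be told apart where whole KO is compared. Each dorsal library expressed Ddx3y. The 12 hippocampal neuron markers were detected in every library, with a summed level of 731 to 1618 CPM. Single markers among them differed between dorsal groups, as given below. In bulk tissue, fewer cells of a type and less RNA per cell cannot be told apart.

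Per kilobase of exon, the members covered a wide range of levels. In WT home cage dorsal hippocampus Ier5 averaged 14.25 CPM per kb and Gadd45g 13.3 CPM per kb, followed by Btg2 at 7.40 and Gadd45b at 6.71 CPM per kb. Ier2, Csrnp1, Trib1 and Npas4 lay lower, at 3.20, 2.25, 1.62 and 1.14 CPM per kb, and Apold1 and Maff lowest at 0.492 and 0.244 CPM per kb. Maff rested on 1 to 20 reads per dorsal library, so that its level is imprecise. All 10 members passed the filter on low counts in both experiments.

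Setting WT fear against WT home cage shows what changes after training in mice with intact Acss2. Ier2 rose about 2-fold and was the single member called, Npas4 and Btg2 lay higher in each WT fear library than in any WT home cage library without passing, and Gadd45g had a fitted log2 difference of -0.03. That is 1 of 10 members called, where the test called 1.63% of the 14808 genes tested, and 3 of 10 with ranges apart upwards, as in 7.7% of genes tested. The members' median log2 difference was 0.51, with 9 of 10 above 0, beside -0.019 over all genes tested.

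**Figure D1:**
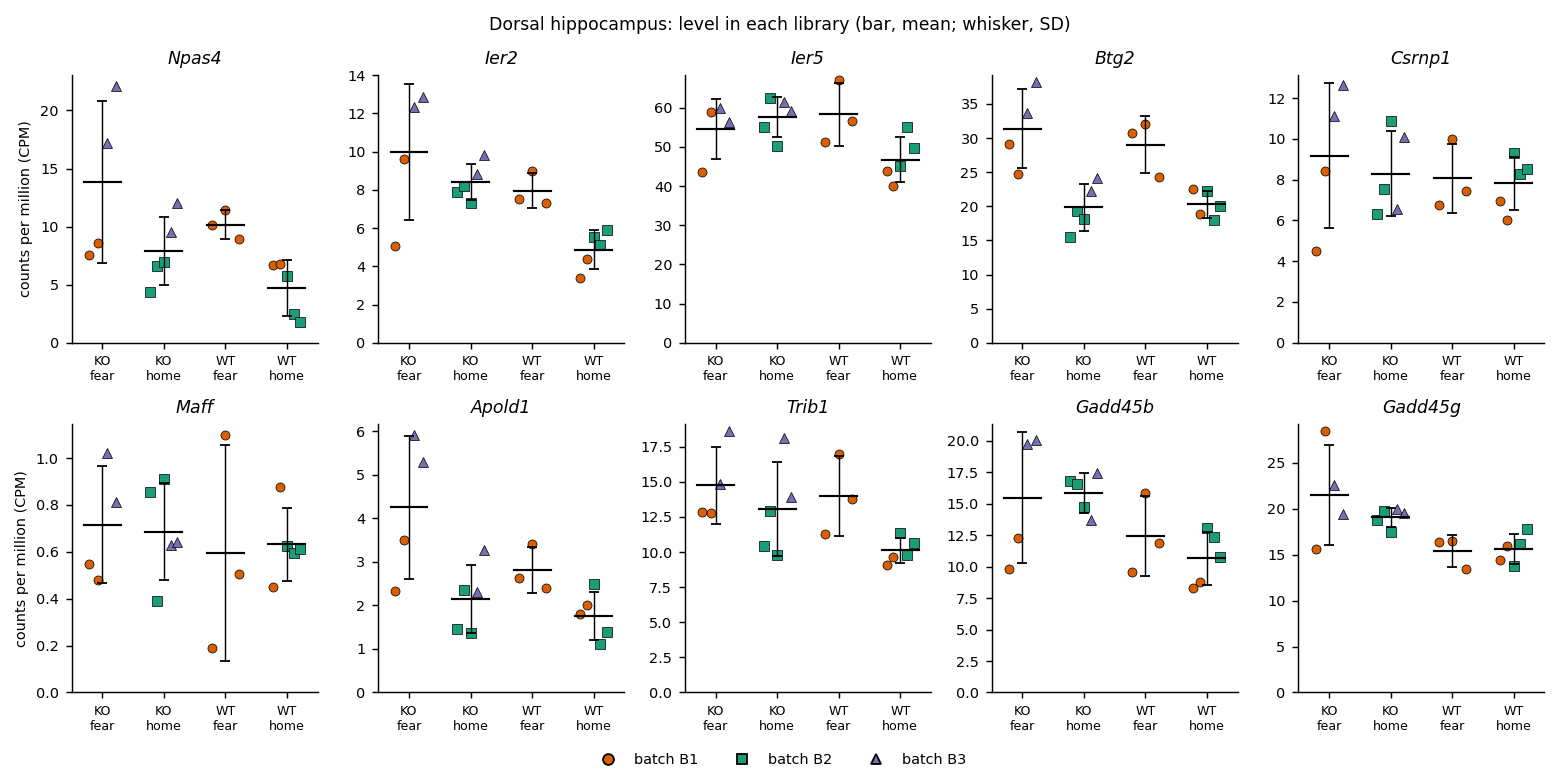
Level of each member (CPM, linear axis from 0) in the 17 dorsal libraries, by group from left to right KO fear, KO home cage, WT fear and WT home cage; each symbol is a library, its shape and colour give the batch, the bar is the group mean and the whisker the SD. Npas4 spans 7.52 to 22.1 CPM in KO fear, where the B3 libraries lie above the B1 libraries, and 1.79 to 6.78 CPM in WT home cage.

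Ier2, a nuclear protein that appears early after growth factors and activity, is encoded on chromosome 8 from 84661331 to 84662852 on the minus strand of mm10. It stood at 7.53, 8.99 and 7.32 CPM in WT fear libraries 1 to 3, against 3.37, 4.39, 5.56, 5.10 and 5.92 CPM in WT home cage libraries 1 to 5. The lowest WT fear library lay above the highest WT home cage library. With batch in the fit Ier2 rose by 1.04 ± 0.21 on the log2 scale (± SE, 2.06-fold, edgeR adjusted p = 0.0312). This call was lost in 5 of 17 leave-one-out fits. The edgeR adjusted p was 0.170 without WT home cage 2, 0.149 without WT fear 2, 0.101 without WT fear 3, 0.0512 without KO home cage 4 and 0.0502 without KO fear 4. Within B1, with 3 WT fear and 2 WT home cage libraries, the log2 difference was 1.06 (adjusted p = 0.161).

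Npas4 (chromosome 19, 4984355 to 4990316, minus strand), whose core CRE and TATA matches are shown above, was measured at 10.2, 11.4 and 8.96 CPM in WT fear, against 6.74, 6.78, 5.73, 2.48 and 1.79 CPM in WT home cage. The groups did not overlap, yet the WT home cage libraries spread 3.79-fold and the lowest of them, 4 and 5, were of B2. The difference was 0.93 ± 0.38 on the log2 scale (edgeR adjusted p = 0.174). Within B1 it was 0.61, with WT fear at 8.96 to 11.4 CPM and WT home cage at 6.74 and 6.78 CPM. Over the dorsal groups Npas4 averaged 13.8 ± 7.0 CPM in KO fear, 7.91 ± 2.9 CPM in KO home cage, 10.2 ± 1.2 CPM in WT fear and 4.70 ± 2.4 CPM in WT home cage (SD), and neighbours in the order of these means overlapped. Npas4 was among the more variable genes in both experiments. Its biological coefficient of variation was 0.273 in the dorsal fit, exceeded by 5.31% of tested genes, and 0.321 in whole hippocampus, exceeded by 2.88%. The whole hippocampus libraries differed mainly in Het, 3.13-fold, against 1.034-fold in WT and 1.295-fold in KO.

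Btg2, an antiproliferative protein that recruits the CCR4-NOT deadenylase to messenger RNA, carried a full CRE in the window shown. It had 30.7, 32.1 and 24.2 CPM in WT fear, against 22.5, 18.8, 22.2, 18.0 and 20.1 CPM in WT home cage. The ranges were apart, and the difference of 0.50 ± 0.14 on the log2 scale missed the threshold (edgeR adjusted p = 0.0727). Ier5, a nuclear partner of the phosphatase PP2A, and Gadd45b, which binds the kinase MAP3K4 and promotes DNA demethylation in activated mouse neurons, had ranges that overlapped. Ier5 stood at 51.2, 67.1 and 56.6 CPM in WT fear and at 39.9 to 54.9 CPM in WT home cage (log2 0.45 ± 0.14, adjusted p = 0.0942). Gadd45b stood at 9.60, 15.9 and 11.9 CPM in WT fear and at 8.31 to 13.1 CPM in WT home cage (0.66 ± 0.19, adjusted p = 0.0710). With the batch term left out the Gadd45b difference was 0.22, and the cause was not tested. DESeq2 called Ier5, Btg2 and Gadd45b beside Ier2, with adjusted p = 0.0333, 0.0198 and 0.0188.

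The remaining members gave smaller or less certain differences. Trib1, a pseudokinase that brings the ubiquitin ligase COP1 to its substrates, had 11.3, 17.0 and 13.8 CPM in WT fear and 9.10 to 11.4 CPM in WT home cage (log2 0.52 ± 0.18, edgeR adjusted p = 0.129). Apold1, an early response gene of endothelial cells, had 2.64, 3.40 and 2.40 CPM in WT fear and 1.102 to 2.49 CPM in WT home cage (0.70 ± 0.36, adjusted p = 0.279). The 8 endothelial markers went the other way, with a summed level of 58.1 to 62.6 CPM in WT fear and 73.8 to 121 CPM in WT home cage, and 0 of 8 were called. Csrnp1, a cysteine- and serine-rich nuclear protein that activates transcription, lay at 6.78 to 9.98 CPM in WT fear and 6.02 to 9.30 CPM in WT home cage (0.43 ± 0.27). Its annotation lies wholly within that of Cx3cr1 on the same strand. It also overlaps 1700019L13Rik on the other strand over 1513 bp, and the libraries do not mark strand. The counts of Csrnp1 are uncertain for both reasons. Maff, a small Maf factor that lacks an activation domain of its own, had 0.188, 1.096 and 0.505 CPM in WT fear, spanning the WT home cage range of 0.449 to 0.878 CPM. Gadd45g, a relative of Gadd45b, had 16.4, 16.4 and 13.4 CPM in WT fear and 13.7 to 17.8 CPM in WT home cage (-0.03 ± 0.19).

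Other rapid activity genes were called in the same comparison, where 1.63% of all genes tested were called. Of the 27 tested, 24 lay above 0, 15 rose and 0 fell, with a median log2 difference of 0.80. Egr2 averaged 9.65 CPM in WT fear and 0.352 CPM in WT home cage (25.6-fold), and Fos averaged 25.0 CPM in WT fear and 4.94 CPM in WT home cage (5.83-fold). Junb rose 2.85-fold as did Dusp6, the gene of a phosphatase that acts on ERK, 1.98-fold (edgeR adjusted p at most 0.00204 for these 4). Among 14 tested paralogs of the members Btg1 alone rose (0.50 ± 0.11, adjusted p = 0.0360), and kept its call in 10 of 17 leave-one-out fits. Among 15 upstream regulators Srf alone rose (0.47 ± 0.11, adjusted p = 0.0455), and kept its call in 5 of 17 leave-one-out fits. Among 12 protein partners and 5 NPAS4 target genes 0 passed, and Arnt2, which encodes the ARNT protein abundant in brain, had 0.52 ± 0.18. Of the 12 hippocampal neuron markers 6 lay above 0 and 6 below, from -1.62 to 1.24 on the log2 scale, and 2 were called as higher. Markers of other cells differed between the same groups. Summed ependymal markers were at 7.45 to 10.7 CPM in WT fear and 35.3 to 88.8 CPM in WT home cage, with 7 of 7 markers below 0 and 4 called, and summed oligodendrocyte markers were at 3615 to 4922 CPM in WT fear and 6306 to 12610 CPM in WT home cage, with 8 of 8 below 0 and 7 called. The part of these neuron and other markers in the members' differences was not tested.

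KO fear against KO home cage asked the same of mice without Acss2. All 10 members had a fitted log2 difference above 0 with batch in the fit, and 0 were called, as were 0% of genes tested. The mean CPM of Ier5 and Gadd45b was nonetheless lower in KO fear (54.6 and 15.5) than in KO home cage (57.6 and 15.8). Within B3, the batch that both groups share, Ier5 had -0.06. The members' median was 0.30, beside -0.0017 over all genes tested. At an unadjusted p under 0.05 the genes numbered 714 with edgeR, and 6 passed by DESeq2, among them Btg2.

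Btg2 had 29.1, 24.7, 33.6 and 38.2 CPM in KO fear libraries 1 to 4, against 15.5, 19.3, 18.1, 22.2 and 24.1 CPM in KO home cage libraries 1 to 5. Each KO fear library lay above each KO home cage library, which was so for Btg2 alone among the members and for 2.33% of genes tested. Its difference was 0.61 ± 0.12 (edgeR adjusted p = 0.404, DESeq2 adjusted p = 0.0130) and 0.62 within B3. Npas4 had 7.52, 8.55, 17.2 and 22.1 CPM in KO fear, against 4.37, 6.61, 6.97, 9.57 and 12.02 CPM in KO home cage. Its B1 libraries overlapped the KO home cage range, and its B3 libraries did not. The fitted Npas4 difference was 0.42 ± 0.31 (adjusted p = 0.968), and within B3, with 2 libraries in each group, it was 0.85.

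Apold1 gave the largest fitted difference of the members in KO, 0.87 ± 0.28 (edgeR adjusted p = 0.968). It had 2.32, 3.49, 5.92 and 5.28 CPM in KO fear and 1.37 to 3.28 CPM in KO home cage. In KO fear its B3 libraries were the highest, and in KO home cage B3 library 5 was the highest, at 3.28 CPM, while B3 library 4 (2.31 CPM) lay just under B2 library 2 (2.35 CPM). The summed endothelial markers of B3 stood at 132 and 174 CPM in KO fear and 128 and 186 CPM in KO home cage, beside 72.2 and 82.6 CPM in the B1 KO fear libraries and 76.2 to 84.9 CPM in the B2 KO home cage libraries. Within B3 the Apold1 difference was 0.99. Ier2 had 5.06, 9.64, 12.3 and 12.8 CPM in KO fear and 7.33 to 9.83 CPM in KO home cage (0.43 ± 0.17, adjusted p = 0.968). A single KO fear library, number 1, lay under the KO home cage range. Ier5 had the fitted difference nearest 0, with 43.5 to 60.0 CPM in KO fear and 50.2 to 62.5 CPM in KO home cage (0.01 ± 0.12). Csrnp1, Maff, Trib1, Gadd45b and Gadd45g had fitted differences of 0.17 to 0.37, and their ranges overlapped. Of the 27 other rapid activity genes 0 passed, and Egr2 and Fos had 1.93 ± 0.38 and 1.28 ± 0.25 (adjusted p = 0.404 for both).

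**Figure D2:**
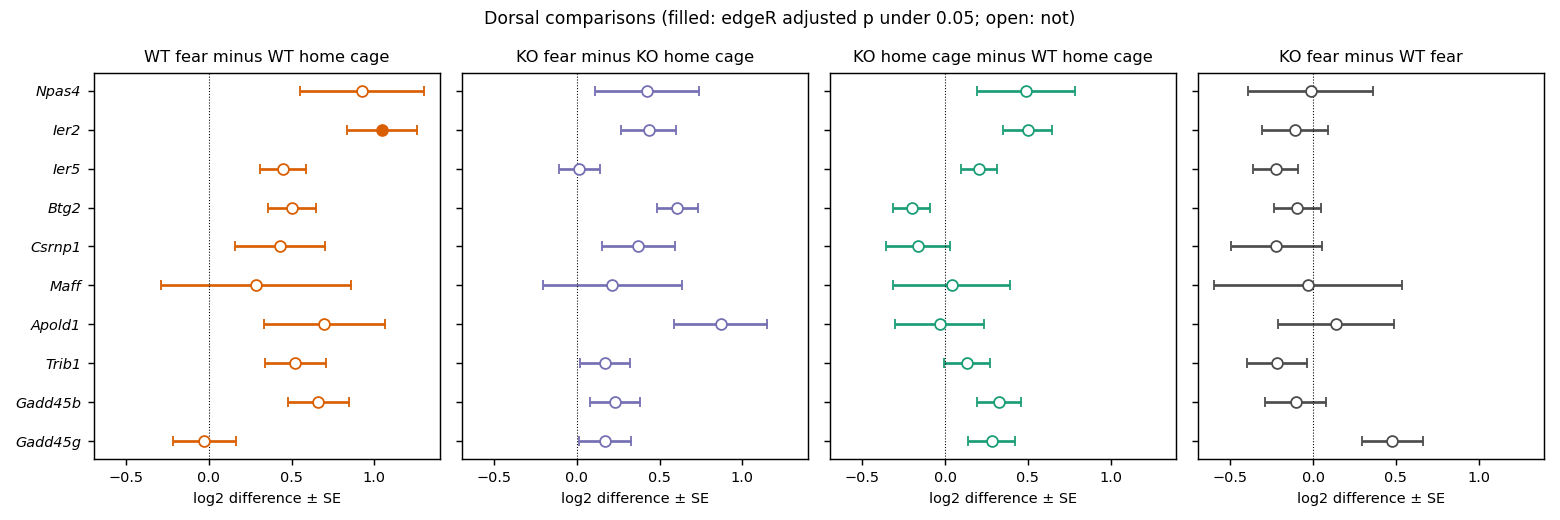
Fitted log2 differences with batch in the model (x axis, point with SE) of the 10 members in 4 dorsal comparisons, from left to right WT fear minus WT home cage, KO fear minus KO home cage, KO home cage minus WT home cage and KO fear minus WT fear; filled points passed an edgeR adjusted p of 0.05. The filled point is Ier2 in WT fear minus WT home cage, at 1.04, and 9 of 10 members lie above 0 there.

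The interaction, that is the fear difference of KO less the fear difference of WT, was called for 0 of 10 members, against 0.479% of genes tested. The WT and KO responses of the members were therefore not shown to differ. The lowest values were -0.61 ± 0.23 for Ier2 (edgeR adjusted p = 0.140), -0.50 ± 0.42 for Npas4 (0.478), -0.43 ± 0.16 for Ier5 (0.134) and -0.43 ± 0.20 for Gadd45b (0.228). Btg2, the member with separated ranges in both genotypes, had 0.10 ± 0.16. Of the 27 other rapid activity genes 22 had a lower fear difference in KO and 5 passed, among them Egr2 at -2.75 ± 0.53, Nr4a2 at -1.39 ± 0.25, Junb at -1.15 ± 0.22 and Dusp6 at -0.86 ± 0.15 (adjusted p at most 0.0420). With a library left out, the genes called by the interaction over the whole table numbered 0 to 1007, and were 0 without any 1 of the 4 KO fear libraries, KO home cage 4 or 5, WT fear 2 or 3, or WT home cage 2 or 5.

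KO home cage against WT home cage asked whether the members differed at rest. None of 10 was called, against 0.00675% of genes tested, and 1674 genes had an unadjusted p under 0.05. Ier2 had 7.89, 8.17, 7.33, 8.80 and 9.83 CPM in KO home cage, against 3.37, 4.39, 5.56, 5.10 and 5.92 CPM in WT home cage. Each KO library lay above each WT library, also within B2, where KO had 7.33 to 8.17 CPM and WT 5.10 to 5.92 CPM. The difference was 0.50 ± 0.15 (edgeR adjusted p = 0.440). The KO home cage range of Ier2 overlapped the WT fear range of 7.32 to 8.99 CPM. Gadd45b was likewise separated, at 16.8, 16.6, 14.7, 13.7 and 17.4 CPM in KO home cage, against 8.31, 8.78, 13.1, 12.4 and 10.8 CPM in WT home cage (0.33 ± 0.13, adjusted p = 0.440). These were 2 of 10 members, where 1.71% of genes tested had every KO home cage library above every WT home cage library. Npas4 overlapped, at 4.37 to 12.02 CPM in KO home cage and 1.79 to 6.78 CPM in WT home cage, with 0.49 ± 0.30 in the fit and 0.87 within B2. The other 7 members had fitted differences from -0.20 (Btg2) to 0.28 (Gadd45g). Of the other rapid activity genes, paralogs, upstream regulators, partners and NPAS4 target genes 0 passed.

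KO fear against WT fear set the trained animals side by side. The test called 22.3% of genes, and 0 of 10 members. Npas4 had 7.52, 8.55, 17.2 and 22.1 CPM in KO fear, against 10.2, 11.4 and 8.96 CPM in WT fear. The KO libraries of B1 lay under the WT fear range, all of which is B1, and those of B3 above it. The fitted difference was -0.02 ± 0.38, and within B1 alone it was -0.35 (adjusted p = 0.274). All members except Gadd45g had their lowest KO fear value in B1 and their highest in B3. Gadd45g had the largest difference, with 15.6, 28.4, 22.5 and 19.4 CPM in KO fear and 16.4, 16.4 and 13.4 CPM in WT fear (0.48 ± 0.19, edgeR adjusted p = 0.0690). Over 17 leave-one-out fits its difference ran from 0.12 to 0.70. It passed in 1 of these, that without KO fear 1 (0.70, edgeR adjusted p = 0.0306). The other 8 members had fitted differences from -0.23 (Ier5) to 0.14 (Apold1).

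Genes of each related list were called in this comparison, where 22.3% of the 14808 genes tested were called. The calls among partners and paralogs lay near or under that share. Of 27 other rapid activity genes 22 had a fitted difference below 0 and 10 passed as lower in KO fear, among them Nr4a2 at -1.16 ± 0.22 and Jun at -0.72 ± 0.14. Of 15 upstream regulators 13 were below 0 and 7 passed as lower, among them Mrtfb, a coactivator of SRF, at -0.79 ± 0.19, and the acetyltransferase genes Ep300 and Crebbp at -0.75 ± 0.20 and -0.70 ± 0.18. Of 12 partners 8 were below 0 and 3 passed as lower, namely Arnt2 (-0.65 ± 0.19), Map3k4 (-0.62 ± 0.15) and Nfe2l1 (-0.39 ± 0.10). Of 5 NPAS4 target genes Syt10 (-0.65 ± 0.22) and Plk2 (-0.42 ± 0.14) passed as lower, and Bdnf, another target in neurons, had 0.30 ± 0.13. Among the paralogs Csrnp2 was lower (-0.62 ± 0.18) and Gadd45a, the third Gadd45 gene, was higher, at 7.25 CPM in KO fear and 4.13 CPM in WT fear on average (1.04 ± 0.31). The edgeR adjusted p of the genes named here as lower or higher ran from 0.0156 to 0.0474. The calls of the whole table numbered 2 without WT fear 2, 1 without WT fear 3 and 1 without KO fear 2. The summed oligodendrocyte markers were at 6201 to 9885 CPM in KO fear and 3615 to 4922 CPM in WT fear, with 8 of 8 above 0 and 7 called, and the ependymal markers at 23.5 to 65.5 CPM in KO fear and 7.45 to 10.7 CPM in WT fear, with 7 of 7 above 0 and called. Of the 12 hippocampal neuron markers 3 passed as higher and 4 as lower in KO fear, with log2 differences from -1.20 to 1.58. The part of all these markers in the differences was not tested.

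In whole hippocampus, KO against WT asked what loss of Acss2 does in untrained mice. None of the 10 members passed, against 0.0388% of genes tested, and the fitted differences of 9 were below 0. Npas4 had 7.96 and 10.3 CPM in KO, against 15.8 and 15.3 CPM in WT (-0.78 ± 0.51, edgeR adjusted p = 0.858). Apold1 had 5.93 and 6.25 CPM in KO, against 9.47 and 8.31 CPM in WT (-0.55 ± 0.21, adjusted p = 0.802), and Gadd45b 13.1 and 13.5 CPM in KO, against 16.2 and 16.5 CPM in WT (-0.29 ± 0.10, adjusted p = 0.802). Both KO libraries lay under both WT libraries for 8 of 10 members, as they did for 21.9% of genes tested. The members' median log2 difference was -0.26, with 9 of 10 below 0, beside 0.0048 over all genes, and 22 of 27 other rapid activity genes were also below 0 with 0 called. These KO libraries also differ from WT in sex-linked genes, as given above. At rest in the dorsal libraries, all of which expressed Ddx3y, the median of the members in KO against WT was 0.17, on the other side of 0.

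**Figure D3:**
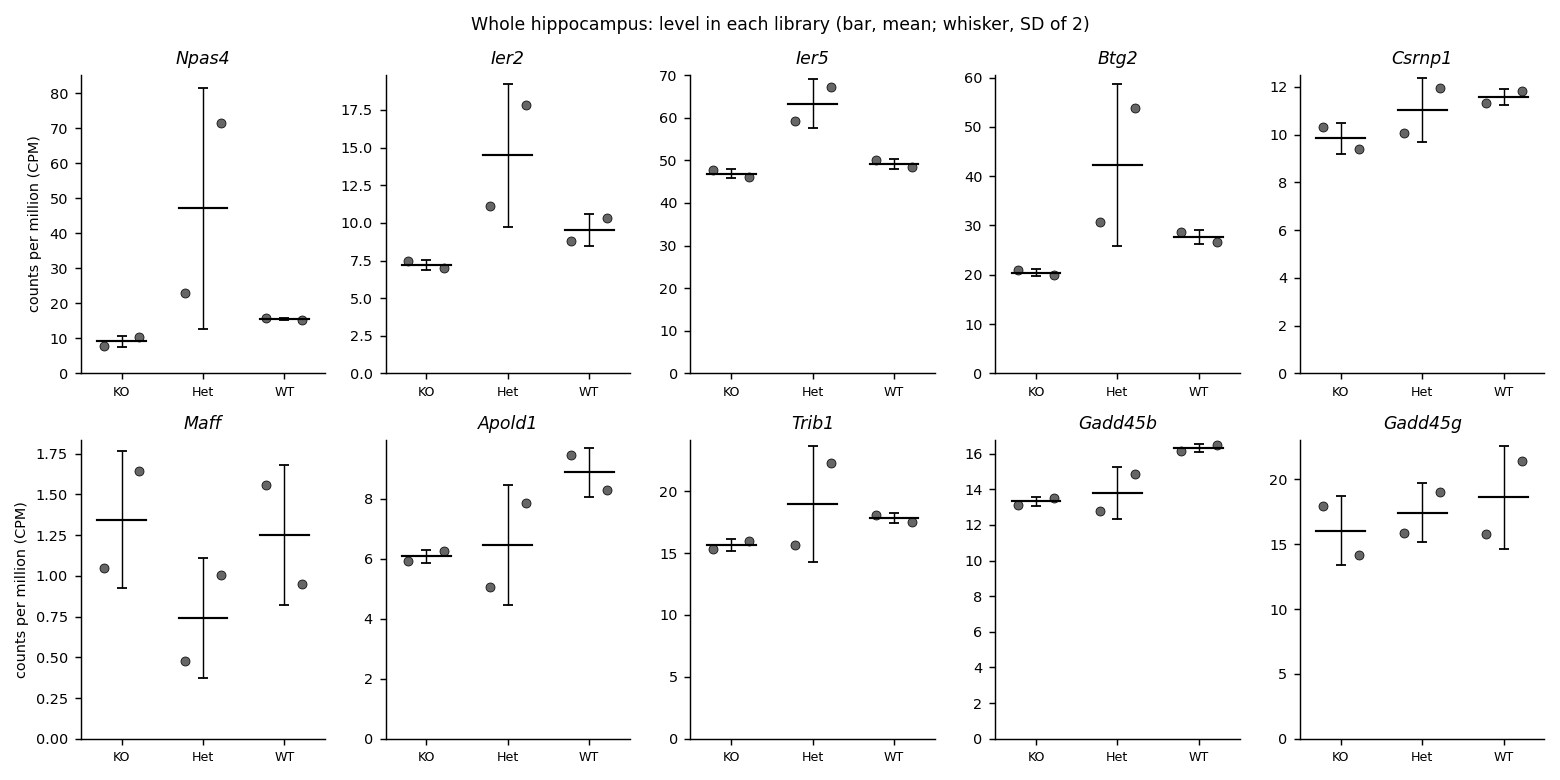
Level of each member (CPM, linear axis from 0) in the 6 whole hippocampus libraries, from left to right KO, Het and WT; each point is a library, the bar is the mean and the whisker the SD of 2 libraries. The Het points of Npas4 stand at 22.9 and 71.5 CPM, and those of KO and WT between 7.96 and 15.8 CPM.

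Het against WT whole hippocampus gave the highest Npas4 levels of whole hippocampus. Npas4 stood at 22.9 and 71.5 CPM in Het libraries 1 and 2, against 15.8 and 15.3 CPM in WT. Both Het libraries lay above WT, and they differed 3.13-fold from each other. The log2 difference was 1.61 ± 0.48 (edgeR adjusted p = 0.296). Ier2 had 11.1 and 17.8 CPM in Het, against 8.78 and 10.3 CPM in WT (0.61 ± 0.22). Btg2 had 30.6 and 53.9 CPM in Het, against 28.6 and 26.7 CPM in WT (0.62 ± 0.24). For Ier5 the Het libraries gave 59.3 and 67.3 CPM, against 50.04 and 48.4 CPM in WT (0.36 ± 0.074). Both Het libraries lay above both WT libraries for these 3 genes and Npas4, as they did for 23.7% of genes tested. For Apold1 (-0.45 ± 0.21) and Gadd45b (-0.24 ± 0.10) both Het libraries lay under both WT libraries, as for 22.9% of genes tested. The other members' ranges overlapped, Maff at -0.71 ± 0.46 among them. In all, 5 members had a difference above 0 and 5 below, with a median of 0.013. None of 10 members was called, as for 0% of genes tested, while an unadjusted p under 0.05 was reached by 2145 genes. By DESeq2, 142 passed. Without Het 1 the differences were 2.20 for Npas4, 0.90 for Ier2, 0.45 for Ier5 and 0.96 for Btg2. They then rest on the lone Het 2, which is assumed to vary like the other groups. Without Het 2 the Npas4 difference was 0.55.

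Het 2 lay above Het 1 for all 10 members, Gadd45b and Gadd45g included, with a median log2 ratio of 0.57 and 1.65 for Npas4. Over all genes tested, 49.9% were higher in Het 2. The same library had summed neocortex markers of 260 CPM, against 164 CPM in Het 1 and 133 to 136 CPM in KO and WT whole hippocampus, and summed hippocampal neuron markers of 731 CPM, against 1129 CPM in Het 1. Summed choroid plexus markers varied within each genotype, with 4026 and 33.0 CPM in the KO libraries, 38.2 and 974 CPM in the Het libraries and 35.4 and 2550 CPM in the WT libraries. Their part in the Het values was not tested. KO against Het gave fitted differences of -2.39 ± 0.50 for Npas4, -1.06 ± 0.24 for Btg2, -1.01 ± 0.23 for Ier2 and -0.44 ± 0.074 for Ier5 (edgeR adjusted p = 0.201 to 0.235), and 0 of 10 members was called, against 0.0841% of genes tested. DESeq2 called these 4 members, at adjusted p of 0.00611 to 0.0357. Sex-linked genes differ between these groups as well, and the comparison shares its Het libraries with that of Het and WT. Without Het 2 the Npas4 value was -1.33.

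**Figure D4:**
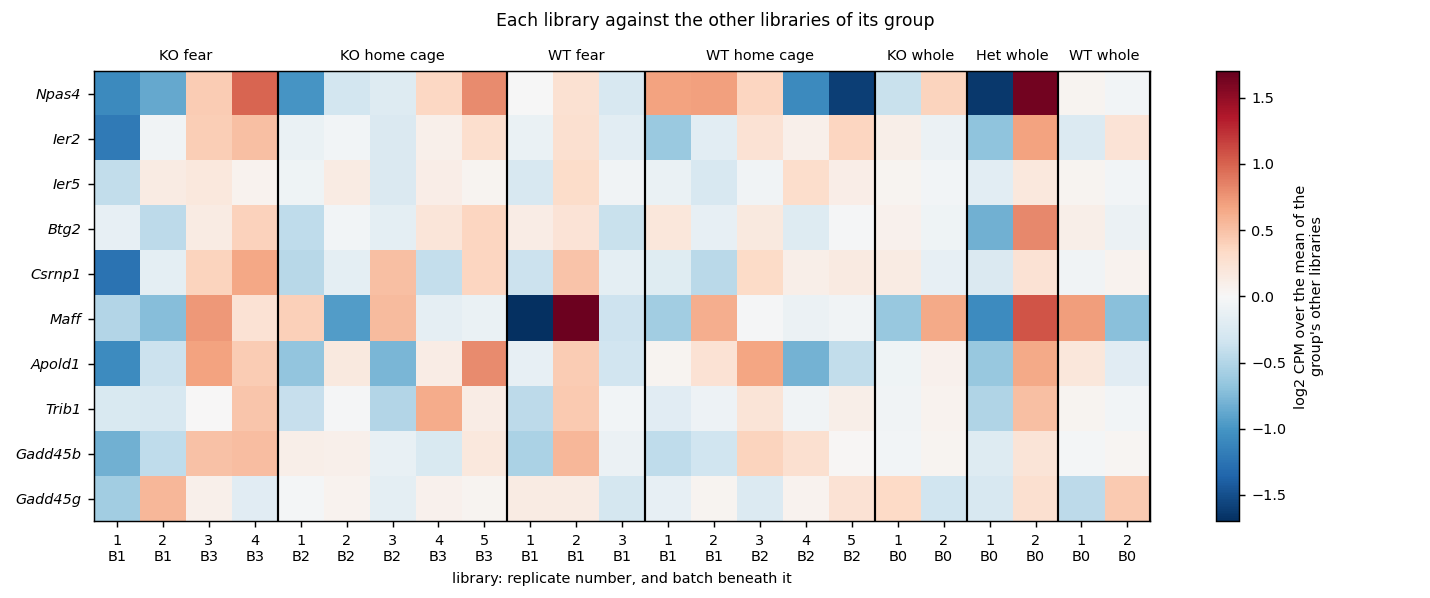
Log2 ratio of each library's CPM to the mean of the other libraries of its group (colour, red higher and blue lower, colours clipped at 1.7) for the 10 members (rows) in the 23 libraries (columns, with replicate number and batch). The Het 2 column is red throughout, and in KO fear the B1 columns are mostly blue and the B3 columns mostly red.

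Within a group, many members lay to the same side of the group's other libraries in the same library. WT fear 2 was above the mean of the other WT fear libraries for 10 of 10 members, by a median of 0.37 on the log2 scale, and WT fear 3 was below it for 10 of 10. In KO fear the pattern followed the batch. KO fear 1 and 2 of B1 were above the mean of the others for 0 and 2 of 10 members, with medians of -0.71 and -0.32, and KO fear 3 and 4 of B3 for 10 and 9, with medians of 0.40 and 0.45. In KO home cage the B3 libraries 4 and 5 were above for 7 and 9 members, and the B2 libraries for 2 to 4. Over all genes tested, the share above was 47% to 49.5% in the fear libraries and 44.9% to 48.8% in KO home cage. WT whole and KO whole libraries showed no such shift, with medians from -0.048 to 0.048. Which of depth, tissue or batch goes with these shifts was not tested, and the B1 libraries were also the shallowest.

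Across the 17 dorsal libraries the genes whose level was most like that of Npas4 were 9130024F11Rik (r = 0.866 on log2(CPM + 1)), Dusp1 (0.844), Fos (0.841), Efcab6 (0.824) and Rsrp1 (0.814), among 11385 tested genes that averaged at least 5 CPM. Over the 10 home cage libraries alone their r was 0.822, 0.785, 0.736, 0.846 and 0.719, and those libraries also entered the choice of the 5 genes. After group and batch were removed from the 17 libraries, r was 0.642, 0.489, 0.703, 0.457 and 0.539. Among the members that could be ranked, Btg2 came 13th (r = 0.776), Trib1 44th (0.705) and Ier2 97th (0.652), and Gadd45g had the lowest r at 0.277. With group and batch removed, r was 0.490 for Btg2, 0.171 for Ier2 and -0.0018 for Trib1. For the other members it was 0.702 for Apold1, 0.539 for Csrnp1, 0.493 for Gadd45b, 0.204 for Maff, -0.225 for Ier5 and -0.248 for Gadd45g. Apold1 and Maff averaged under 5 CPM and were not ranked. These libraries share groups and batches, which enter each r without that step. Fos had 18.5, 21.2, 34.7 and 36.5 CPM in KO fear and 9.45, 13.7, 8.79, 13.4 and 13.4 CPM in KO home cage. It had 18.3, 33.3 and 23.4 CPM in WT fear and 4.04, 5.52, 7.71, 4.32 and 3.11 CPM in WT home cage. As with Npas4, its highest values were the B3 libraries of KO fear, and unlike Npas4 its fear and home cage libraries did not overlap in either genotype.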

How the data were processed

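Polyadenylated RNA was sequenced from 23 libraries made with a kit that does not mark strand, per the labels' protocols. The authors deposited raw read counts per gene symbol, 1 table per experiment, and only these were used. Tools named in the submitters' processing notes are HTSeq 0.9.1, STAR, limma, DESeq2 and SAMtools 1.1, with mm10 as the build; which annotation was counted is not stated there, and coordinates come from GENCODE M21 on mm10. Dates had replaced 26 of the dorsal symbols. A quasi-likelihood F test (edgeR 4.0.16, R 4.3.3) was run after TMM scaling and filterByExpr (count minimum 10, total minimum 15), on 15453 genes of whole hippocampus (genotype, 3 residual degrees of freedom) and 14808 dorsal genes (group and batch, 11 residual degrees of freedom). CPM values are relative to TMM-scaled library sizes, and the 2 experiments were scaled separately. P-values are two-sided, Benjamini-Hochberg adjusted over all tested genes, with a threshold of 0.05. The SE is the log2 difference divided by the square root of F. No label says that replicates are separate animals, so p-values measure the spread between libraries; libraries of a group differed beyond counting noise (chi-square per gene 6.1 to 62.1). DESeq2 1.42.0, RLE scaling, no filter, a replicate block, fits without batch or within a batch, and leaving out each library were the alternatives. The members and gene lists were chosen with earlier results of these data known. All 10 members are named, with at most 4 passing genes of smallest p per other list and the 5 genes most like Npas4; Arnt2 in WT fear, Egr2 and Fos in KO fear and Bdnf were added after their values were seen.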

Additional observations from a re-analysis of the deposited data

How the results depend on the processing

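Over 1466 refits of the members' log2 differences, 0 called values turned round, and the sign was kept throughout for 51 of 80 pairs of member and comparison. Called members in WT fear against WT home cage (1) were 4 by DESeq2, 0 with the replicate block, 0 without batch, 0 within B1 and 0 to 4 with a library left out. In KO fear against KO home cage (0), DESeq2 gave 1. In KO against Het whole (0), DESeq2 gave 4 and left-out libraries 0 to 5. Left-out libraries gave 0 to 4 in Het against WT whole and 0 to 1 in KO fear against WT fear. Ier2 in WT fear was 1.09 with the block (edgeR adjusted p = 0.0898) and 0.68 without batch (0.0963), within a range of 0.000776 to 0.170. The cause was not tested.

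Genes called over the table moved more. By DESeq2 they were 19 in KO against WT whole (6), 142 in Het against WT whole (0), 135 in KO against Het whole (13), 938 in WT fear (241), 6 in KO fear against KO home cage (0), 2 in KO against WT home cage (1) and 907 in the interaction (71). With no filter they were 3 in Het against WT whole, 23 in KO against Het whole, 528 in WT fear, 2 in KO against WT home cage and 400 in the interaction, and with RLE 130 in the interaction. The replicate block gave 7 in KO against Het whole, 15 in WT fear, 1 in KO fear against WT fear (3298) and 0 in the interaction; the 2 groups alone gave 7 in KO against Het whole. Without batch they were 712 in WT fear, 1 in KO fear against KO home cage, 2 in KO against WT home cage, 1544 in KO fear against WT fear and 0 in the interaction. Within B1, 91 were called in WT fear, and within B3, 2 in KO fear against KO home cage. With a library left out the counts ran from 0 to 1424 in Het against WT whole, 6 to 1211 in KO against Het whole, 6 to 829 in WT fear, 1 to 585 in KO against WT home cage, 1 to 4610 in KO fear against WT fear and 0 to 1007 in the interaction.

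Replicate numbers share no stated animal or day. Same-numbered libraries correlated in their deviations from the group means at -0.351 to 0.508 (9 of 22 pairs over 0.1) in the dorsal experiment and at -0.739 to 0.347 (2 of 6) in whole hippocampus, so the numbers were not taken as pairs. Precision is limited by the few reads of Maff (1 to 20 per dorsal library), by the shallow B1 libraries, which hold every WT fear sample, and by groups of 2 in whole hippocampus.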
